A study of Drosophila melanogaster with 30 samples.

Results

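Nuclear genes of oxidative phosphorylation were followed by complex through a sleep deprivation study of the fly brain. A gene was included where its current symbol begins with ND- (complex I), Sdh (complex II), UQCR- (complex III), COX (complex IV) or ATPsyn (complex V), and where the platform annotation pairs a probe set with that gene alone. Each gene is represented by 1 probe set, the one with the highest mean over the arrays. The rule found 67 genes, on 69 probe sets, among 10843 genes named on the array: 31 of complex I, 7 of complex II, 4 of complex III, 11 of complex IV and 14 of complex V. Of these, 50 are called subunits here, among them Sdhaf3, which is an assembly factor of complex II that shares the prefix. The other 17 have symbols ending in L, L1 or L2, which mark a duplicate of another gene, and are called paralogs. RefSeq holds 91 genes with these prefixes, and the 24 others were not analysed here. The choice used symbols and mean signals and no difference between groups.

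Oxidative phosphorylation takes place in the inner mitochondrial membrane. Complex I oxidises NADH, complex II oxidises succinate, complex III passes the electrons to cytochrome c, and complex IV passes them to oxygen. Complexes I, III and IV pump protons, and complex V, the ATP synthase, lets them flow back and makes ATP. Most subunits are encoded in the nucleus, and some subunits of some complexes are encoded by the mitochondrial genome. Brain tissue draws most of its ATP from this route. In Drosophila, many duplicates of these genes are known for expression in testis.

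Brains were taken from virgin females of the wild-type strain Canton-S at 5 days of age, and whole-brain RNA was measured. The 30 arrays, each a separate pool of 139 to 193 brains, form 10 groups of 3. In the deprivation experiment (21 arrays), deprived flies were kept awake by hand for 2, 4 or 6 h from ZT14 and sleeping flies were left undisturbed to the same hours. ZT counts the hours after lights-on under 12 h of light a day, and a further undisturbed group was taken at ZT14, in the dark phase. The active period experiment has 9 arrays. One group was stimulated by hand for 4 h to ZT14, and the wake group was left undisturbed to that hour. A last undisturbed group was taken at ZT10. The labels name no genotype, agent or transgene other than the strain and these handlings. For replicate 1 of the 6 h sleeping group the source name says deprived, whereas the title, the description and the condition say sleeping; the array counts as sleeping here.

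All values are deposited log2 signals, so a difference of 1 is a 2-fold difference, and signals of different probe sets are not comparable as RNA levels. Array medians lay between 4.88 and 4.96. Markers of neurons averaged 5.28 to 6.58 over 7 probe sets on the single arrays, and glial markers 6.995 to 7.57 over 6. For tissues that a dissected brain can carry along, fat body markers averaged 8.24 to 9.61 over 7 probe sets, and muscle markers 4.67 to 4.98 over 14, near the array medians. Testis markers, only a reference since all flies were female, averaged 3.72 to 3.98 over 7, below the array medians. These averages say nothing of how much of a tissue was carried along. Whole tissue was measured, so fewer cells of a type and less RNA per cell cannot be told apart. Precision is limited by the small number of arrays.

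The subunits gave bright signals and the paralogs dim ones. The mean signal over the 30 arrays had a median of 8.96 over the 50 subunits and 4.29 over the 17 paralogs. In complex I, ND-MNLL had the brightest probe set, at 10.01, and ND-B8 the dimmest, at 2.76. In complex II the brightest was SdhB, the iron-sulfur subunit, at 9.49, and the dimmest SdhAL, at 2.63. In complex III, UQCR-Q stood at 10.20 and UQCR-14L at 3.45. In complex IV, COX4 stood at 10.84, the brightest of all members, and COX6AL2 at 2.37, the dimmest of all. In complex V, ATPsynE stood at 10.39 and ATPsynCF6L at 4.29. Among the subunits, the probe sets of ND-B8 and COX7C, at 2.76 and 3.48, lay below the array medians, in the range where array signals understate differences.

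Some arrays stood apart in the subunits as a body, and this bears on every comparison that follows. The mean of the 50 subunits was 8.37 on replicate 1 of the 2 h deprived group, 8.37 on replicate 1 of the 4 h deprived group, and 8.39 and 8.33 on replicates 1 and 2 of the 4 h sleeping group. The other 17 arrays of the experiment lay between 8.58 and 8.97. These 4 low arrays were the first 4 of their experiment to be scanned. In the active period experiment, replicate 1 of the wake group was low at 8.47, against 8.62 to 8.79 on the other 8 arrays, and it was also the first to be scanned and the only array of its chip lot.

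Within their groups, the early arrays were lower in nearly every subunit. In the 2 h deprived group the early array lay below the mean of the other 2 arrays in 48 of 50 subunits, with a median difference of -0.45, whereas 42.8% of all probe sets were lower on it. The 4 h deprived group gave 48 of 50 and -0.41, beside 44.4% of all probe sets. The 4 h sleeping group, with 2 early arrays against 1, gave 46 of 50 and -0.27, beside 46.1%. The wake group gave 46 of 50 and -0.20, beside 55.5%. The lower values ran through all 5 complexes: in the 2 h deprived group the median was -0.53 in complex I, -0.36 in complex II, -0.65 in complex III, -0.50 in complex IV and -0.36 in complex V. The paralogs did not share this, with medians of 0.13 in the 2 h deprived group, 0.06 in the 4 h deprived group, 0.07 in the 4 h sleeping group and -0.05 in the wake group.

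**Figure D1:**
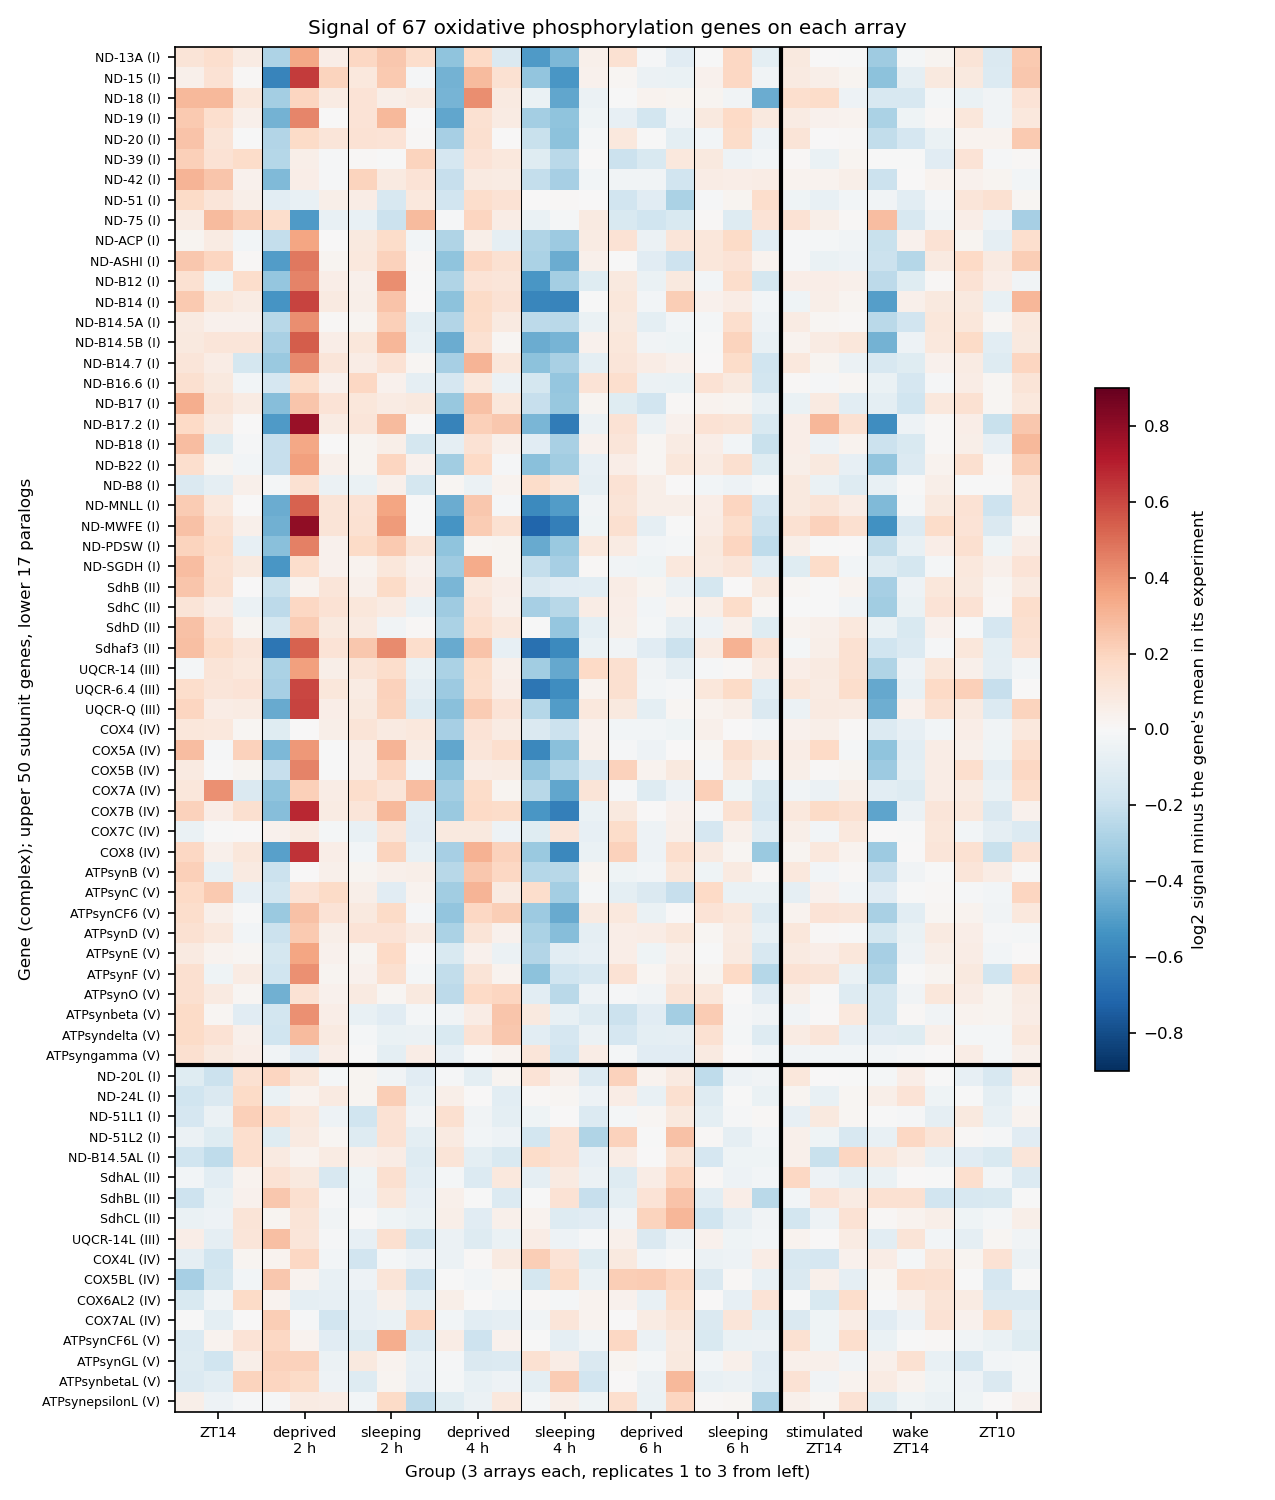
Signal of the 67 genes on the 30 arrays, as log2 signal minus the gene's mean within its experiment (colour); rows are genes with the complex in parentheses, 50 subunits above the thick horizontal line and 17 paralogs below it, and columns are arrays in 10 groups of 3, with the active period experiment right of the thick vertical line. Subunits of all 5 complexes are low together on replicate 1 of the 2 h and 4 h deprived groups, on replicates 1 and 2 of the 4 h sleeping group and on replicate 1 of the wake group, and high together on replicate 2 of the 2 h deprived group, where their mean was 8.97.

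The early arrays with low subunit means also had the smallest values of an actin measure of RNA or label length. The array carries actin control probe sets for the 3' and the 5' end of the transcript, and their log2 difference grows where the labelled RNA is shorter or less complete. The 4 early arrays of the deprivation experiment had the smallest differences, at 1.78 on replicate 1 of the 2 h deprived group, 1.80 on replicate 1 of the 4 h deprived group, and 1.49 and 1.80 on replicates 1 and 2 of the 4 h sleeping group. The other 17 arrays ran from 1.87 to 2.70, and the highest value belonged to replicate 2 of the 2 h deprived group, which also had the highest subunit mean, 8.97. In the active period experiment the early wake array had the smallest difference, 2.07, beside 2.14 to 2.78 on the other 8 arrays. Groups without early arrays did not all follow this. The mean actin difference was 2.33 in the 6 h deprived and 1.94 in the 6 h sleeping group, with subunit means of 8.65 and 8.68. An association over all arrays was not tested. The GAPDH and eIF-4a controls set only some of the early arrays apart. The early 4 h sleeping arrays were lowest, at 1.40 and 1.52 for GAPDH and 1.34 and 1.30 for eIF-4a. The early 2 h and 4 h deprived arrays read 1.86 and 1.79 for GAPDH and 1.86 and 1.98 for eIF-4a. Those values lay within the range of the other arrays. The early wake array was lowest for eIF-4a, at 1.69, but read 2.38 for GAPDH, above 2.20 on replicate 2 at ZT10. Results are therefore given with all arrays, without these 5 early arrays, and, where it matters, with the actin difference as a covariate; these last 2 settings were chosen after the data were seen.

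Hybridisation date was uneven over the groups. The 2 h deprived and 2 h sleeping arrays share no date, nor do the 6 h deprived and 6 h sleeping arrays, so at these hours condition and date cannot be told apart within the pair of groups. At 4 h, 1 date holds both conditions, with 1 deprived and 2 sleeping arrays. A fit with date as a block therefore reaches its 2 h and 6 h values, and any call among them, through the dates of other groups. Along the sleeping night, the ZT14 and 2 h arrays share no date with the 4 h and 6 h arrays. Hour and date therefore cannot be told apart between these parts of the sleeping night.

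**Figure D2:**
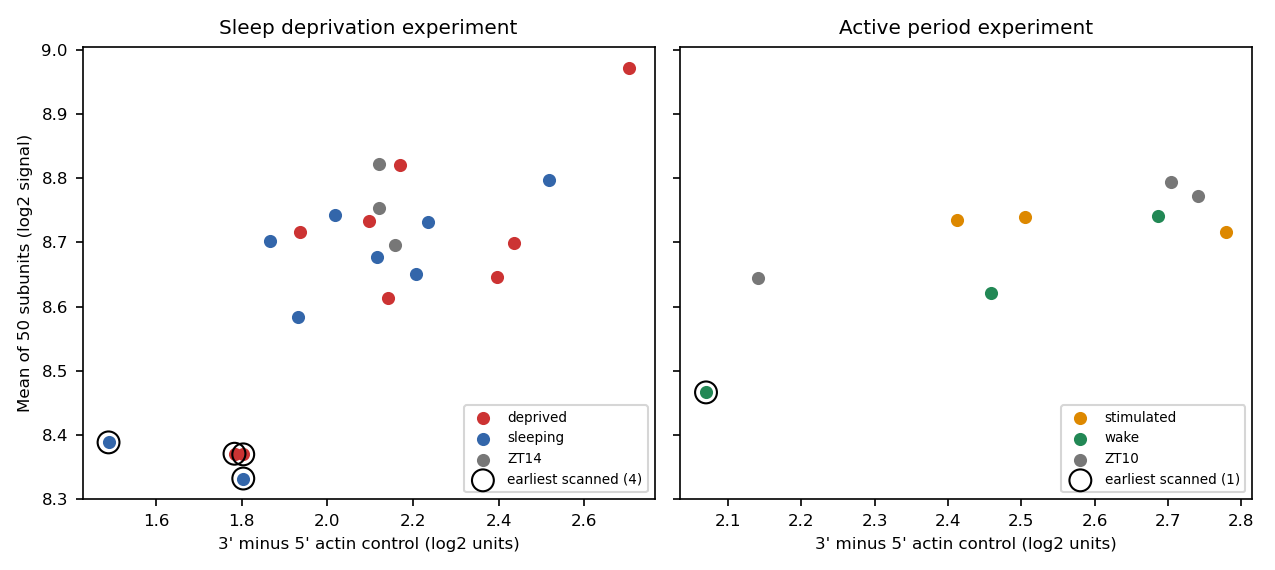
Mean log2 signal of the 50 subunits on each array (vertical) against the log2 difference between the 3' and 5' actin controls (horizontal), for the 21 arrays of the deprivation experiment (left) and the 9 arrays of the active period experiment (right); colours give the condition and open circles mark the earliest-scanned arrays. The 4 circled arrays on the left lie between 8.33 and 8.39, below the 8.58 to 8.97 of the others.

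This scatter sets the precision. The residual SD between arrays of a group had a median of 0.18 over the subunits in the deprivation experiment, against 0.12 over all probe sets and 0.14 over the probe sets at or above the median signal. By complex it was 0.21 for complex I, 0.15 for complex II, 0.26 for complex III, 0.22 for complex IV and 0.15 for complex V. In the active period experiment it was 0.11 for the subunits and 0.11 for all probe sets. The paralogs had medians of 0.11 in the deprivation experiment and 0.08 in the active period experiment.

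No member passed an adjusted p of 0.05 in any of 10 comparisons. The comparisons were fitted with limma over all 13966 probe sets and adjusted by Benjamini and Hochberg. Of the 670 tests of members, 24 had an unadjusted p under 0.05, or 3.58%, against 9.21% of the tests over all probe sets. The smallest adjusted p of a member was 0.172, for COX5BL along the deprived night. A p that misses the threshold does not show that values were alike, so 95% intervals are given beside the differences.

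Averaged over 2, 4 and 6 h, deprived minus sleeping differences of the subunits were small. Their median was 0.04, with single genes between -0.08 and 0.21, and 34 of 50 were positive. The paralogs had a median of 0.06 and 16 of 17 were positive, and the median over all probe sets was 0.01. The test called 0 members at the adjusted threshold, where it called 0.924% of all probe sets. At an unadjusted p under 0.05 it called 2 members, both higher in deprived brains, where it called 14.4% of all probe sets. These 2 were the paralogs SdhCL and COX5BL. The subunit median was 0.07 without the early arrays, -0.03 with the actin covariate, -0.05 with hybridisation date as a block and -0.01 without replicate 2 of the 2 h deprived group, so its sign depended on the setting and the arrays used. For UQCR-6.4, a small subunit of complex III, the mean difference was 0.13 (95% interval -0.09 to 0.36, adjusted p = 0.566). It was 0.06 without replicate 2 and 0.21 without replicate 1 of the 2 h deprived group, 0.0057 with the actin covariate, 0.03 with the date block and 0.21 with array weights.

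After 2 h, at ZT16, the subunits gave no common direction that held without the early array. Their median difference was -0.03, 15 of 50 were positive, and in complex I 23 of 26 were negative. Without the early arrays the median was 0.11 and 41 of 50 were positive. Leaving out single arrays of the 2 h deprived group moved the median between -0.19, without replicate 2, and 0.11, without replicate 1. With the actin covariate it was 0.05, and with the date block, which has no shared date at this hour, 0.14 with 38 of 50 positive. The test called 0 members, where it called 0.00716% of all probe sets, and at an unadjusted p under 0.05 it called ND-42 alone, where it called 8.33% of all probe sets.

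After 4 h, at ZT18, nearly every subunit had a higher mean in deprived than in sleeping brains. The median difference was 0.17 and 48 of 50 were positive, with a range from -0.06 for ND-B8 to 0.40 for COX7B. Over all probe sets the median was -0.02, and over the paralogs -0.01, with 8 of 17 positive. The subunit medians were 0.18 in complex I, 0.12 in complex II, 0.22 in complex III, 0.17 in complex IV and 0.18 in complex V. The test called 0 members, where it called 0.0143% of all probe sets, and it called 0 members at an unadjusted p under 0.05 too, where it called 4.37% of all probe sets. The 4 h groups hold 3 of the 4 early arrays, 1 of them deprived and 2 sleeping. Without them the median was 0.15 with 43 of 50 positive, from 2 deprived arrays and 1 sleeping array, and with the actin covariate it was 0.08 with 45 of 50 positive. With hybridisation date as a block it was -0.0026 with 24 of 50 positive, and on the 1 date that holds both conditions, with 1 deprived array against 2 sleeping arrays, -0.13. On that date the deprived array and 1 of the sleeping arrays were early. Within 1 chip lot the median was -0.04, from 2 deprived arrays, 1 of them early, and 1 sleeping array that was not early. Within another it was 0.40, from 1 deprived array that was not early and 1 early sleeping array. Leaving out single arrays gave medians from 0.09, without replicate 2 of the 4 h deprived group, to 0.31, without its replicate 1. With arrays weighted by their scatter it was 0.28, and 28 of the 50 subunits and 2 of the 17 paralogs passed the threshold, with 1949 of all probe sets; of these 30 members 28 were higher and 2 lower in deprived brains. The largest weight among the 4 h arrays, 3.96, went to an early sleeping array, and the largest of all, 6.80, to replicate 1 of the 2 h sleeping group.

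After 6 h, at ZT20, subunits and paralogs had different medians. The subunits had a median of -0.01 with 22 of 50 positive, and the paralogs 0.14 with 16 of 17 positive, beside 0.02 over all probe sets. The test called 0 members, where it called 0.0931% of all probe sets. At an unadjusted p under 0.05 it called 5 members, where it called 18% of all probe sets. Of these 5, the paralogs ND-20L, SdhCL and COX5BL were higher in deprived brains and the subunits ND-51 and ATPsynbeta were lower. No early array belongs to the 6 h groups. The actin difference was 2.14 to 2.44 on the 6 h deprived arrays and 1.87 to 2.02 on the 6 h sleeping arrays. These ranges did not overlap, so condition and actin difference cannot be told apart within this pair of groups. Bright and dim probe sets also differed here: the probe sets at or above the median signal had a median of -0.05, and those below it 0.06, with 67.9% positive. The subunit median depended on the setting, at -0.23 with the actin covariate, with 3 of 50 positive, -0.27 with the date block, with 4 of 50 positive, and 0.06 after renewed quantile normalisation, with 39 of 50 positive. Without replicate 3 of the 6 h sleeping group it was -0.08, and without replicate 2 of that group 0.03. Within each of 2 chip lots it was 0.0099 and -0.02. The paralog median was 0.07 without replicate 3 of the 6 h deprived group, 0.17 without its replicate 2, and 0.30 with the date block. The lowest subunit, named here after its value was seen, was the assembly factor Sdhaf3, at -0.28 (95% interval -0.74 to 0.17, adjusted p = 0.469). It passed the threshold with the actin covariate, at -0.66 (adjusted p = 0.0440), in a fit that called 60 of all probe sets.

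**Figure D3:**
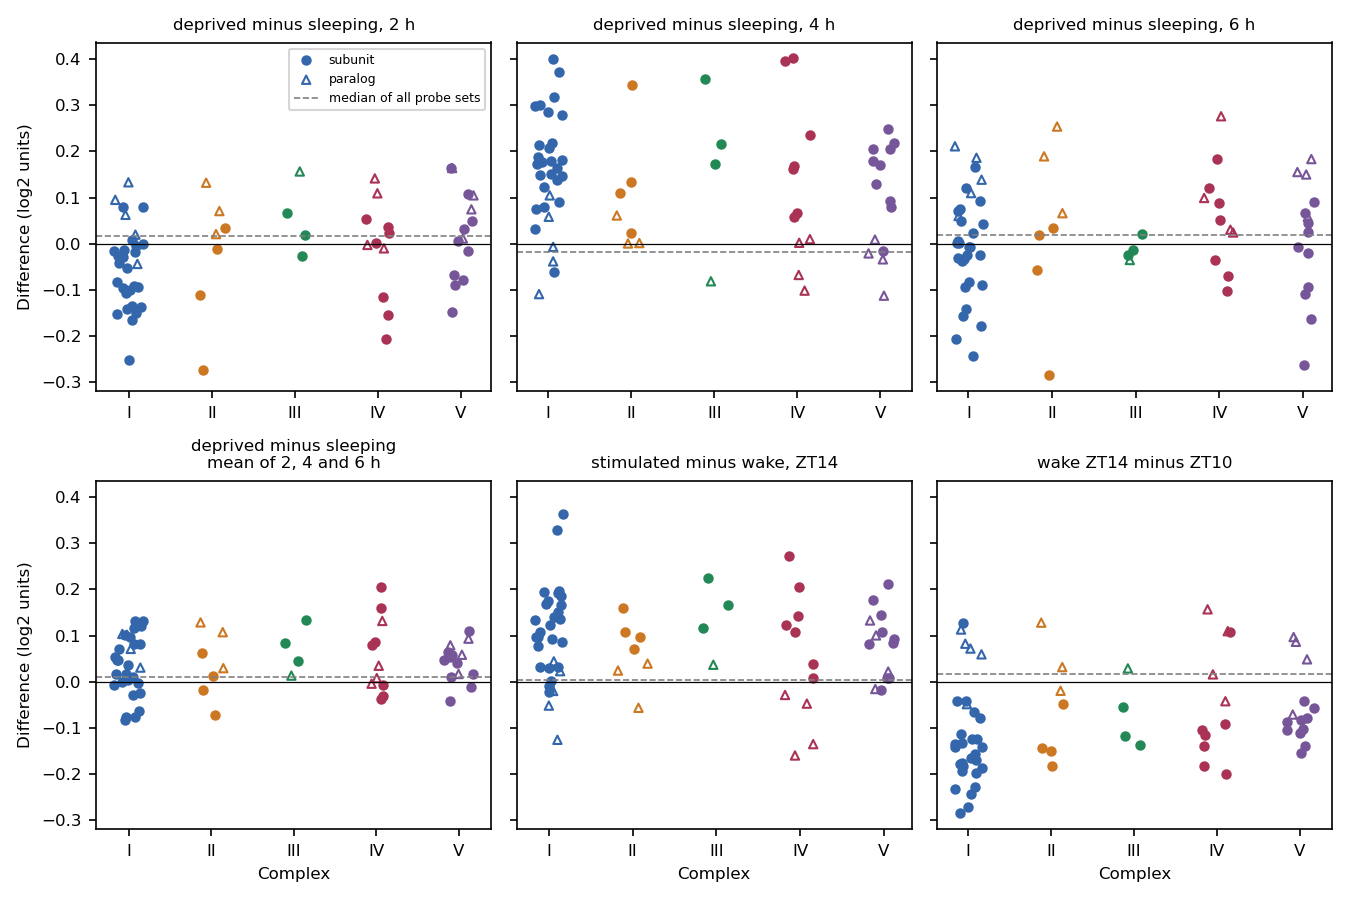
Differences of the 67 genes (log2 units, vertical) by complex (horizontal) in 6 comparisons; filled circles are subunits, open triangles are paralogs, and the dashed line is the median of all probe sets. At 4 h 48 of 50 subunits lie above 0, at 6 h 16 of 17 paralogs do, and for wake ZT14 minus ZT10 48 of 50 subunits lie below 0; no difference passed an adjusted p of 0.05.

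Whether the effect changed between 2 and 6 h was tested directly. The test of this change called 0 members, where it called 0.00716% of all probe sets, and at an unadjusted p under 0.05 it called ATPsynbeta alone, where it called 3.32% of all probe sets. The median change was 0.04 over the subunits and 0.08 over the paralogs. The subunit value was -0.11 without replicate 1 of the 2 h deprived group and 0.185 without its replicate 2. With all arrays kept it was -0.26 with the actin covariate, where 46 of 50 were negative, and -0.38 with the date block, where 47 of 50 were negative, so its sign depended on the arrays and on the setting. The paralog value was 0.0041 without replicate 2 of the 2 h sleeping group and 0.41 with the date block.

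Along the night, both conditions were followed from the same ZT14 arrays, so the 2 trends are not independent of each other. In deprived brains the subunits had a median slope of -0.019 log2 units per hour, with 45 of 50 negative, and the paralogs 0.011, with 16 of 17 positive. The test of the deprived slope called 0 members, where it called 0.294% of all probe sets, and 3 at an unadjusted p under 0.05, where it called 15.7%. These 3 were COX5BL, ND-51 and ATPsyngamma. In sleeping brains the subunits had a median slope of -0.027, with 48 of 50 negative, and the paralogs -0.0046, with 6 of 17 positive. The test of the sleeping slope called 0 members, where it called 0.107% of all probe sets, and 2 at an unadjusted p under 0.05, where it called 7.89%. These 2 were ND-18 and ND-39, accessory subunits of complex I. Over all probe sets the median slope was 0.0029 in deprived and 0.0017 in sleeping brains. Without the early arrays the subunit slopes had medians of -0.021 in deprived and -0.017 in sleeping brains. With the actin covariate they were -0.032 in deprived and 0.0014 in sleeping brains, where 30 of 50 were positive. With the date block they were -0.025 in deprived and 0.018 in sleeping brains, where 36 of 50 were positive, so the sign of the sleeping slope depended on the setting. No date holds both the earlier sleeping points, ZT14 and 2 h, and the later ones, so hour and date cannot be told apart there. The deprived median was -0.0086 without replicate 2 of the 2 h deprived group. After renewed quantile normalisation the deprived median was -0.0029, with 21 of 50 positive. With arrays weighted by their scatter, ND-39, ND-42, ND-51, ND-B17 and COX5BL passed the threshold along the deprived night, where 1637 of all probe sets passed. ND-18 and ND-42 passed along the sleeping night, where 797 of all probe sets passed.

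The group means by complex did not decline evenly. The mean of the complex I subunits was 8.43 ± 0.07 at ZT14, 8.41 ± 0.07 after 2 h, 8.11 ± 0.18 after 4 h and 8.34 ± 0.09 after 6 h of undisturbed sleep (SD, n = 3 each). In deprived brains it was 8.34 ± 0.32, 8.30 ± 0.25 and 8.32 ± 0.04 after 2, 4 and 6 h. The 4 h sleeping mean was the lowest of the 7 groups in all 5 complexes, with 7.68 ± 0.15 in complex II, 9.28 ± 0.33 in complex III, 8.78 ± 0.18 in complex IV and 9.19 ± 0.10 in complex V. That point includes 2 early arrays. On the third array of that group the complex means were 8.32, 7.85, 9.65, 8.99 and 9.29.

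**Figure D4:**
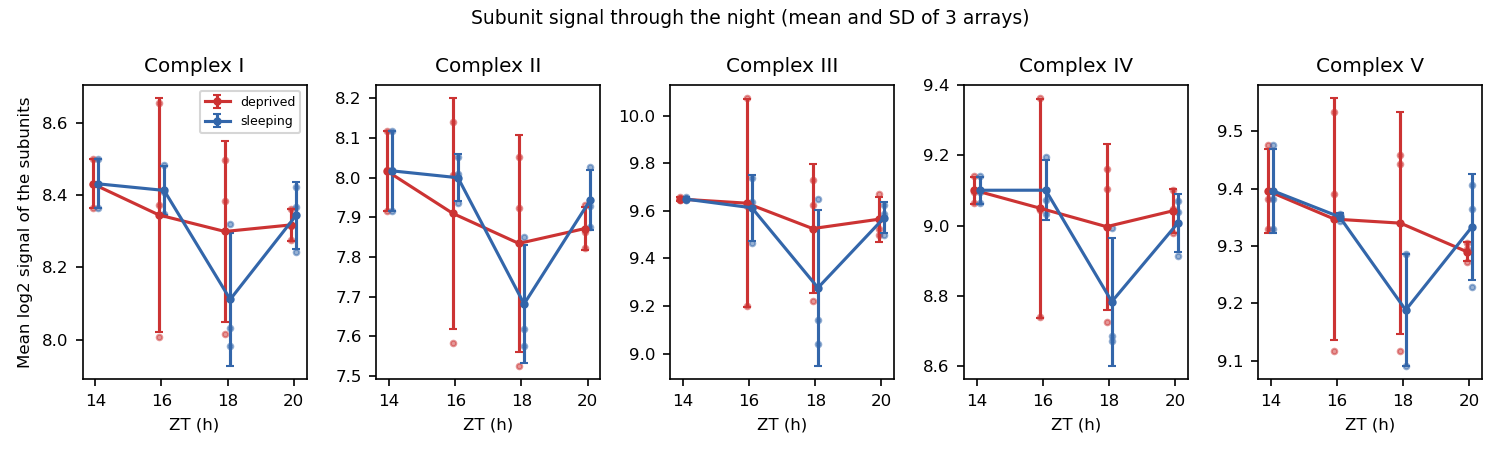
Mean log2 signal of the subunits of each complex (vertical) at ZT14, 16, 18 and 20 (horizontal) in deprived and sleeping brains, with lines and bars for the mean and SD of 3 arrays and faint points for single arrays; the ZT14 arrays are shared. The sleeping mean is lowest at ZT18 in every complex, and the deprived points at ZT16 spread widely, from 8.01 to 8.65 in complex I.

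In the active period, most subunits had a higher mean in stimulated than in wake brains, and the size of this depended on the early wake array. Stimulated minus wake differences had a median of 0.11 over the subunits, with 47 of 50 positive, -0.02 over the paralogs, and 0.0030 over all probe sets. The test called 0 members, where it called 0.0859% of all probe sets. At an unadjusted p under 0.05 it called 6 members, all of them subunits with a higher mean in stimulated brains, where it called 7.03% of all probe sets. They were ND-18, ND-20, ND-B17.2, ND-MWFE, COX7B and ATPsynCF6. Without the early wake array the median was 0.05, 39 of 50 were positive, and 2 members had an unadjusted p under 0.05. Without replicate 3 of the wake group the median was 0.19, and 20 members had an unadjusted p under 0.05. With the actin covariate the median was 0.07 with 43 of 50 positive. The subunit means of the arrays were 8.74, 8.74 and 8.72 in the stimulated group, against 8.47, 8.62 and 8.74 in the wake group. The stimulated arrays thus lay close together, at the level of the highest wake array.

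Over the last 4 h of the active period, most subunits had a lower mean at ZT14 than at ZT10 in undisturbed flies. Wake ZT14 minus ZT10 differences had a median of -0.14 over the subunits, with 48 of 50 negative, 0.06 over the paralogs and 0.02 over all probe sets. This comparison and the stimulated one share the wake arrays. The wake arrays were scanned at ranks 1, 4 and 6 of the experiment and the ZT10 arrays at ranks 7, 8 and 9. Hour and scan order therefore cannot be told apart here, with or without the early wake array. The test called 0 members, where it called 0.0644% of all probe sets. At an unadjusted p under 0.05 it called 4 members, all of complex I and lower at ZT14, where it called 11.4% of all probe sets. They were ND-20, ND-ASHI, ND-B22 and ND-SGDH. Without the early wake array the median was -0.06 and 39 of 50 were negative, and without replicate 3 of the wake group it was -0.20. With the actin covariate it was -0.10 with 48 of 50 negative. Fat body markers had a median difference of 0.41 in the same comparison, with 7 of 7 positive, and photoreceptor markers -0.25, with 7 of 7 negative; their part in the result was not tested.

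The 4 h deprivation effect was also set against the stimulation effect. The difference of these differences had a median of 0.05 over the subunits and -0.04 over the paralogs. Over the subunits it was -0.11 with the date block, where 45 of 50 were negative, and 0.196 with array weights. Leaving out single arrays moved it between -0.03, without replicate 2 of the 4 h deprived group, and 0.19, without its replicate 1. The paralog median was 0.06 with the date block and 0.04 without replicate 2 of the 4 h sleeping group, so neither sign held. The test called 0 members, where it called 0% of all probe sets, and 0 members at an unadjusted p under 0.05, where it called 1.76%. For COX7B the difference of the effects was 0.13 (95% interval -0.41 to 0.67, adjusted p = 1.000).

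Complex I supplied 26 subunits. ND-51, the flavoprotein that binds NADH, read 8.53, 8.60 and 8.41 in 6 h deprived brains, against 8.69, 8.73 and 8.86 in 6 h sleeping brains. All 3 deprived arrays lay below all 3 sleeping arrays. The difference was -0.24 (95% interval -0.43 to -0.05, adjusted p = 0.202). The same gene had the complex I slope of smallest p in deprived brains, -0.041 per hour (95% interval -0.071 to -0.011, adjusted p = 0.212). It read 8.87, 8.81 and 8.75 at ZT14, so that all 3 arrays of the 6 h deprived group were below all 3 of the start. The 6 h difference of ND-51 was -0.11 after renewed quantile normalisation. With hybridisation date as a block it was -0.57 and passed the threshold (adjusted p = 0.0362), in a fit that called 704 of all probe sets. That value rests on other groups, since no date holds both 6 h groups.

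ND-42, an accessory subunit, read 8.21, 8.67 and 8.60 in 2 h deprived brains, against 8.81, 8.69 and 8.73 in 2 h sleeping brains. The groups did not overlap, and the lowest value was that of the early array. The difference was -0.25 (95% interval -0.48 to -0.02, adjusted p = 0.594). Without the early array it was -0.11.

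ND-18, an accessory subunit whose human counterpart NDUFS4 is a known disease gene, read 6.76, 6.76 and 6.57 at ZT14. In sleeping brains it read 6.59, 6.52 and 6.54 after 2 h, 6.41, 6.01 and 6.42 after 4 h, and 6.49, 6.44 and 6.03 after 6 h. All 6 arrays of the 4 h and 6 h sleeping groups were below all 3 of the start, with which they share no hybridisation date. The slope was -0.071 per hour (95% interval -0.127 to -0.014, adjusted p = 0.501), and -0.0057 with hybridisation date as a block.

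The largest differences of complex I at 4 h were those of ND-MWFE, at 0.40, and ND-B14, at 0.37, both accessory subunits, named after their values were seen. ND-B12 had the smallest p, at 0.30 (95% interval -0.04 to 0.64, adjusted p = 0.956). It read 7.44, 7.84 and 7.82 in 4 h deprived brains, against 7.19, 7.41 and 7.60 in 4 h sleeping brains. The groups overlapped, since the early deprived array read below a sleeping one. Without replicate 1 of the 4 h sleeping group the difference was 0.195.

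ND-B17.2, another accessory subunit, had the smallest p of complex I under stimulation. It read 6.51, 6.75 and 6.58 in stimulated brains, against 5.89, 6.403 and 6.46 in wake brains. The groups did not overlap, and the early wake array was the lowest. The difference was 0.36 (95% interval 0.06 to 0.66, adjusted p = 0.647), and 0.18 without that array.

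ND-ASHI, an accessory subunit, had the smallest p between wake ZT14 and ZT10. It read 8.13, 8.06 and 8.40 in wake brains, against 8.50, 8.41 and 8.54 at ZT10. The highest wake array lay just below the lowest ZT10 array. The difference was -0.28 (95% interval -0.48 to -0.09, adjusted p = 0.314), and -0.25 without the early array.

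Not all complex I subunits followed the body of them in every group. ND-75, an iron-sulfur subunit of the electron path, read 8.57, 7.91 and 8.35 in 2 h deprived brains, against 8.35, 8.22 and 8.70 in 2 h sleeping brains. It was thus highest on the array where most subunits were lowest, and lowest where they were highest. In wake brains it read 8.66, 8.24 and 8.35, again highest on the early array. In the 4 h groups ND-75 did follow the body and was lowest on the early arrays. There it read 8.41, 8.61 and 8.48 in deprived brains and 8.36, 8.40 and 8.50 in sleeping brains. ND-75 was singled out after its values were seen.

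Complex II was measured through SdhB, which carries its iron-sulfur centres, through the membrane anchors SdhC and SdhD, and through the assembly factor Sdhaf3. SdhB had the smallest p of the complex along the sleeping night, with a slope of -0.033 per hour (95% interval -0.070 to 0.004, adjusted p = 0.683). It read 9.67, 9.56 and 9.43 at ZT14 and 9.26, 9.42 and 9.51 after 6 h of sleep, and the groups overlapped. SdhC gave -0.18 for wake ZT14 minus ZT10 (95% interval -0.39 to 0.03, adjusted p = 0.478), and -0.07 without the early array.

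Sdhaf3 varied most in complex II. It read 5.08, 5.80 and 5.46 in 4 h deprived brains, against 4.87, 4.96 and 5.48 in 4 h sleeping brains, and 4.89, 6.07 and 5.66 in 2 h deprived brains, against 5.78, 5.96 and 5.69 in 2 h sleeping brains. Its low values were on the early arrays in both pairs of groups. The difference was 0.34 at 4 h (95% interval -0.11 to 0.80, adjusted p = 0.956) and -0.27 at 2 h (95% interval -0.73 to 0.18, adjusted p = 0.724). Without the early arrays these were 0.15 at 4 h and 0.05 at 2 h, so the sign at 2 h turned.

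Complex III was measured through UQCR-14, UQCR-6.4 and UQCR-Q, small structural subunits around the cytochromes. UQCR-6.4 read 9.54, 10.02 and 9.93 in 4 h deprived brains, against 9.21, 9.31 and 9.90 in 4 h sleeping brains. The groups overlapped, and the early arrays were lowest in each. The difference was 0.36 (95% interval -0.03 to 0.74, adjusted p = 0.956), and 0.08 without those arrays. Under stimulation UQCR-14 had the smallest p of the complex, with 8.56, 8.58 and 8.63 in stimulated brains, against 8.22, 8.45 and 8.60 in wake brains. That difference was 0.17 (95% interval -0.03 to 0.36, adjusted p = 0.742), and 0.07 without the early wake array. UQCR-Q differed by -0.14 between wake ZT14 and ZT10 (95% interval -0.41 to 0.14, adjusted p = 0.672), and by 0.04 without that array, so its sign turned.

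Complex IV was measured through 7 nuclear subunits that surround the mitochondrially encoded core. COX7B had the largest 4 h difference of all members. It read 9.78, 10.29 and 10.28 in 4 h deprived brains, against 9.59, 9.50 and 10.05 in 4 h sleeping brains. The groups overlapped, and within each group the early arrays were the lowest. The difference was 0.40, a 1.32-fold difference (95% interval -0.01 to 0.81 in log2 units, adjusted p = 0.956), and 0.23 without the early arrays. Under stimulation COX7B read 10.24, 10.31 and 10.28, against 9.66, 10.09 and 10.25 in wake brains. That difference was 0.27 (95% interval 0.02 to 0.53, adjusted p = 0.702), and 0.11 without the early wake array. COX5B, which holds a zinc site in the mammalian enzyme, had the smallest p of the complex for wake ZT14 minus ZT10, at -0.20 (95% interval -0.41 to 0.02, adjusted p = 0.463), or -0.09 without the early array.

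Complex V was measured through 10 subunits. ATPsynbeta, the catalytic subunit, read 5.79, 5.88 and 5.68 in 6 h deprived brains, against 6.21, 5.97 and 5.95 in 6 h sleeping brains. All 3 deprived arrays lay below all 3 sleeping arrays. The difference was -0.26, a 0.834-fold difference (95% interval -0.51 to -0.01 in log2 units, adjusted p = 0.261). Leaving out single arrays gave -0.31 to -0.18. The value nearest 0 came without replicate 1 of the 6 h sleeping group, whose source name says deprived. At 2 h ATPsynbeta read 5.82, 6.396 and 6.04 in deprived brains, against 5.92, 5.88 and 5.97 in sleeping brains, and the groups overlapped. The difference between its 6 h and 2 h effects was -0.43 (95% interval -0.78 to -0.07, adjusted p = 0.999), and -0.27 without replicate 2 of the 2 h deprived group. The probe set of this gene is dim for a subunit, with a mean signal of 5.97.

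ATPsyngamma, the rotating shaft of the enzyme, lay within a narrow range. It read 9.41, 9.33 and 9.33 in 6 h deprived brains, against 9.51, 9.43 and 9.41 in 6 h sleeping brains, and 9.58, 9.52 and 9.49 at ZT14. All 3 arrays of the 6 h deprived group were below all 3 at ZT14. Its deprived slope was -0.026 per hour (95% interval -0.051 to -0.001, adjusted p = 0.309). ATPsynB, of the peripheral stalk, had the smallest p of the complex at 4 h, at 0.22 (95% interval -0.02 to 0.45, adjusted p = 0.956), or 0.13 without replicate 2 and 0.37 without replicate 1 of the 4 h deprived group. ATPsynCF6, also of the peripheral stalk, read 9.29, 9.39 and 9.37 in stimulated brains, against 8.97, 9.17 and 9.28 in wake brains. The lowest stimulated array lay just above the highest wake array. The difference was 0.21 (95% interval 0.03 to 0.40, adjusted p = 0.657), or 0.13 without the early wake array. ATPsynD had the smallest p along the sleeping night, with a slope of -0.027 per hour (95% interval -0.063 to 0.008, adjusted p = 0.740).

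A second probe set allowed a check within a gene for ATPsynC, the ring of the rotor, and ND-MNLL, and the probe sets did not always give the same sign or size. The dimmer probe set of ATPsynC differed by -0.23 at 6 h (adjusted p = 0.276), and the brighter by -0.16 (adjusted p = 0.519). For ND-MNLL the brighter and the dimmer probe set gave 0.30 and 0.23 at 4 h, but 0.04 and -0.02 at 6 h. For ATPsynC the brighter and the dimmer gave 0.0093 and 0.28 for stimulated minus wake, 0.07 and -0.18 for the 4 h deprivation effect minus the stimulation effect, and -0.016 and 0.0036 per hour along the sleeping night.

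**Figure D5:**
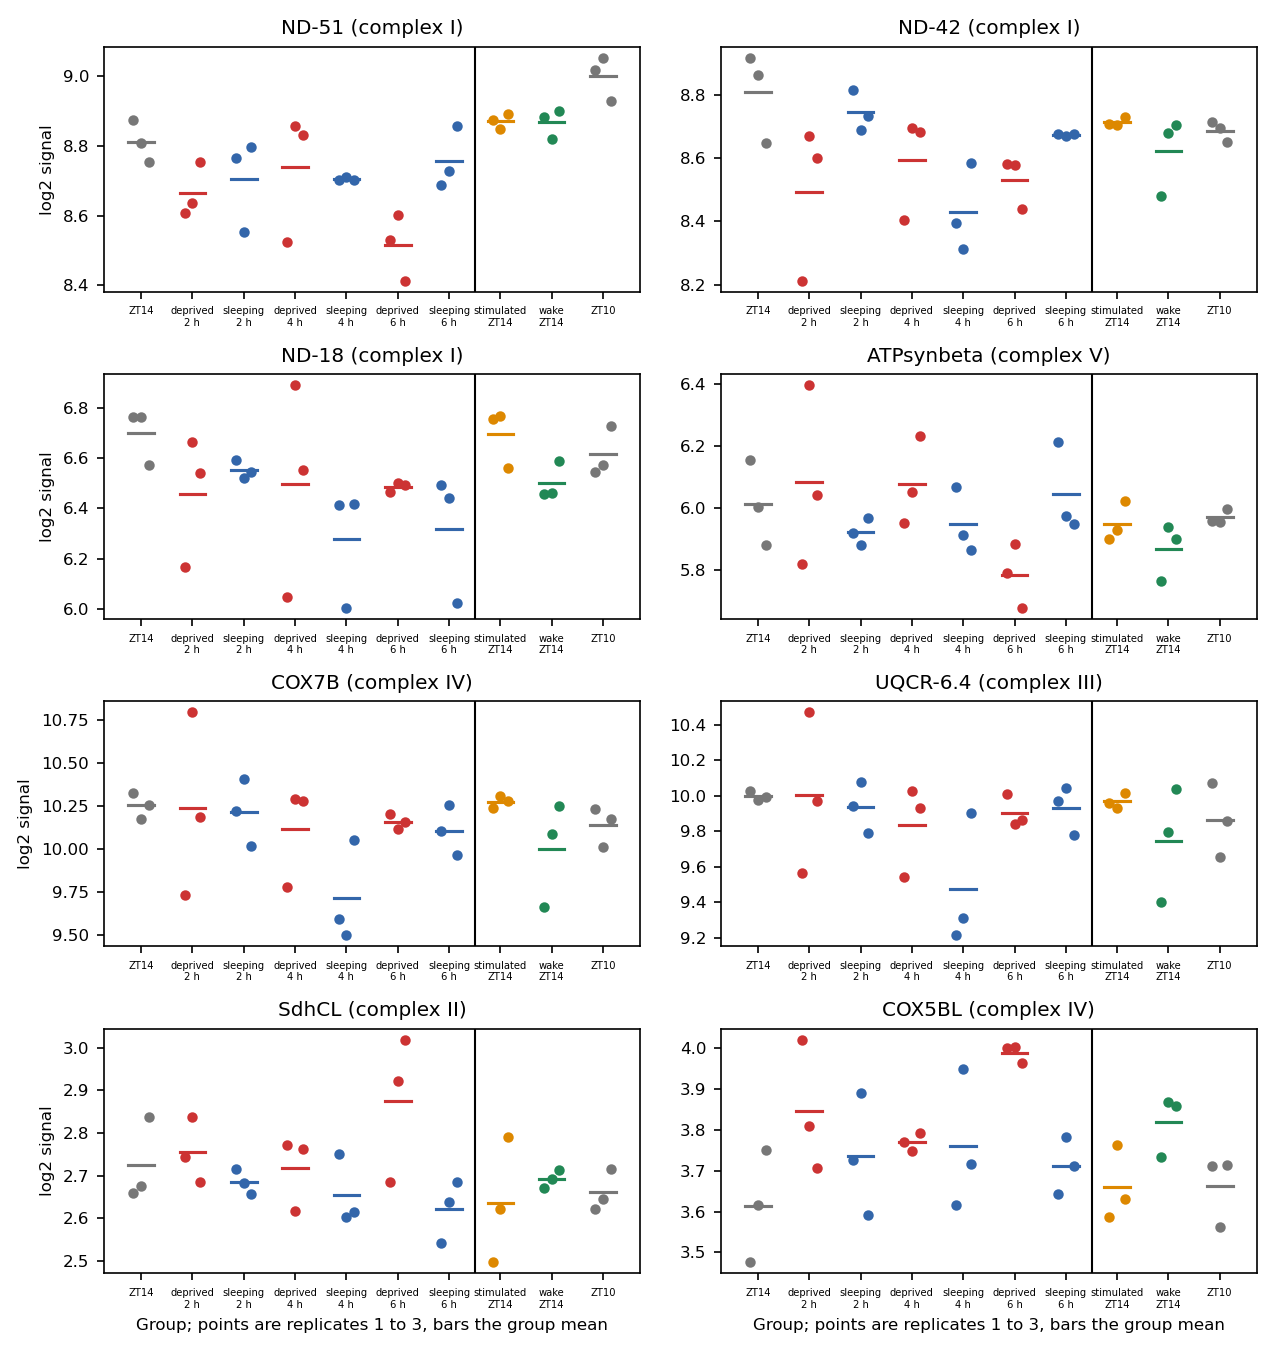
Log2 signal of 8 named genes on every array (vertical) in the 10 groups (horizontal), with points for replicates 1 to 3 and a bar for the group mean; panels have their own vertical ranges. In 6 h deprived brains ND-51 and ATPsynbeta lie below, and COX5BL above, all 3 arrays of the 6 h sleeping group; no difference passed an adjusted p of 0.05.

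The 17 paralogs had signals between 2.37 and 6.71 and are read here only as differences of each probe set. COX5BL, named after COX5B, read 4.00, 4.00 and 3.96 in 6 h deprived brains, against 3.64, 3.78 and 3.71 in 6 h sleeping brains. The groups did not overlap. The difference was 0.28 (95% interval 0.07 to 0.48, adjusted p = 0.195), while COX5B itself gave 0.09 (95% interval -0.19 to 0.36). Its deprived slope, 0.052 per hour (95% interval 0.020 to 0.085, adjusted p = 0.172), carried the smallest adjusted p of all members. It read 3.48, 3.62 and 3.75 at ZT14, below each array of the 6 h deprived group.

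SdhCL, named after SdhC, read 2.69, 2.92 and 3.02 in 6 h deprived brains, against 2.54, 2.64 and 2.69 in 6 h sleeping brains. The lowest deprived array and the highest sleeping array were level at 2.69. The difference was 0.25 (95% interval 0.08 to 0.43, adjusted p = 0.178), and that of SdhC -0.06 (95% interval -0.31 to 0.19). Averaged over the 3 hours SdhCL gave 0.13 (95% interval 0.03 to 0.23, adjusted p = 0.259). With hybridisation date as a block its 6 h difference was 0.49 and passed the threshold (adjusted p = 0.0448), in a fit that called 704 of all probe sets. Again, no date holds both 6 h groups.

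The other paralogs are given beside their namesakes at 6 h. ND-20L differed by 0.21 (95% interval 0.02 to 0.40, adjusted p = 0.245), and ND-20, an iron-sulfur subunit, by -0.03. ND-51L1 and ND-51L2 differed by 0.06 and 0.19, and ND-51 by -0.24. ND-B14.5AL differed by 0.14 and ND-B14.5A by -0.04. In complexes II and III, SdhBL differed by 0.19 and SdhB by 0.03, and UQCR-14L by -0.04 and UQCR-14 by -0.01. UQCR-14L was the 1 paralog below 0.

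In complexes IV and V all 8 paralogs were above 0. COX4L differed by 0.03 and COX4 by -0.03, and COX7AL by 0.10 and COX7A by -0.07. ATPsynCF6L differed by 0.16 and ATPsynCF6 by -0.02. ATPsynbetaL differed by 0.15 and ATPsynbeta by -0.26. The remaining paralogs have no namesake among the members, and they gave 0.11 for ND-24L, 0.07 for SdhAL, 0.02 for COX6AL2, 0.06 for ATPsynGL and 0.18 for ATPsynepsilonL. Apart from COX5BL, SdhCL and ND-20L, the 95% intervals of these paralogs at 6 h included 0. The testis markers, all dim and only a reference in these female brains, had a median difference of 0.08 at 6 h, with 5 of 7 positive. Dim probe sets in general leaned the same way: below the median signal, 67.9% of all probe sets were positive at 6 h, 67.1% at 2 h, 35.7% at 4 h and 68.5% along the deprived night.

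At the other hours the paralogs showed smaller medians, 0.07 at 2 h with 14 of 17 positive and -0.01 at 4 h. UQCR-14L had the smallest p of complex III at 2 h, at 0.16 (95% interval -0.02 to 0.34, adjusted p = 0.641), and 0.08 without the early array. COX4L gave 0.14 (95% interval -0.04 to 0.32, adjusted p = 0.661) and ATPsynbetaL 0.16 (95% interval -0.06 to 0.39, adjusted p = 0.682) at the same hour. With hybridisation date as a block, where no date holds both 2 h groups, the 2 h median was -0.12 and 4 of 17 were positive, so the sign at 2 h depended on the setting. Without replicate 2 of the 2 h sleeping group that median was 0.14.

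Genes around the complexes were set beside the members as counts. Of 21 further subunits and carriers with other names, 6 were measured, and their 4 h median was 0.14 with 5 of 6 positive; they include blw, the alpha subunit of complex V, and RFeSP, the iron-sulfur protein of complex III. Of 12 genes of the citric acid cycle and pyruvate dehydrogenase, the median was 0.02 at 4 h and -0.13 at 6 h, with 11 of 12 negative at 6 h. Of 9 genes of glycolysis, the median was 0.11 at 4 h and -0.08 at 6 h. For 11 assembly factors, leaving out Sdhaf3 as a member, it was 0.03 and -0.04, for 9 carriers of ADP, ATP and phosphate and uncoupling proteins 0.04 and -0.11, and for 11 genes of mitochondrial transcription and genome maintenance -0.02 and -0.03. No gene of these lists passed the adjusted threshold in any comparison. Photoreceptor and neuron markers had medians of -0.32 and -0.33 in the mean deprived minus sleeping comparison, with 0 of 7 and 1 of 7 positive; their part in the members' differences was not tested.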

How the data were processed

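Affymetrix DrosGenome1 arrays measured RNA of 30 brain pools, 3 in each of 10 groups. The authors deposited log2 signals made with affy and RMA, per the submitters' processing notes; their versions, and whether both experiments were normalised together, are not given in these sources. The other deposited values used, scanner settings such as scan order, hybridisation date and chip lot, came from the authors' array headers. Depth has no meaning for arrays, and their number limits the precision.

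Symbols came from the platform annotation, updated by Entrez gene number through RefSeq (Release 6 plus ISO1 MT). Of 13966 probe sets without controls, 12442 had 1 symbol, 327 several and 1197 none; RefSeq matched 12393 of the first, and the platform's name stayed for 49. The members and all lists were chosen with earlier results of these data known. Groups follow the titles.

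Each experiment was fitted with limma 3.58.1 (lmFit, eBayes) in R 4.3.3, with 1 mean per group, with Benjamini-Hochberg adjusted p-values taken across the 13966 probe sets and called under 0.05; the code was tested on simulated data. The slopes weight the 4 group means by hour. The difference of the 4 h and stimulation effects came from 1 fit of all arrays. Named genes are every member past the adjusted threshold, per comparison and complex the member of smallest p, per complex the brightest and dimmest probe set, and every paralog beside its namesake. Others are said to be named after their values were seen, or are listed because their unadjusted p was under 0.05. Replicates are separate pools, per the labels. Deviations of same-numbered arrays from their group means had correlations of -0.38 to 0.44 over 15 pairs, 5 over 0.1. Differently numbered arrays were not compared, so whether the numbers pair arrays was not settled, and the main fits did not pair them. Alternatives were a filter on dim probe sets, renewed quantile normalisation, median centring, other sets of arrays, array weights, trended variance, blocks, averaged probe sets, a threshold of 0.10, each array left out and, added after the data were seen, the actin covariate and the early arrays left out. Python 3.11.15, pandas 2.3.3 and matplotlib 3.10.9 made tables and figures.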

Additional observations from a re-analysis of the deposited data

How the results depend on the processing

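The count of members past the threshold was 0 in 328 of 333 alternative fits, among them every fit with a replicate block, which gave 0 calls in each of the comparisons. The exceptions were array weights, with 30 members at 4 h, 5 along the deprived night and 2 along the sleeping night, hybridisation date as a block, with 2 at 6 h, and the actin difference as a covariate, with 1 at 6 h. In the same order, those fits called 1949, 1637, 797, 704 and 60 of all probe sets. Leaving out single arrays gave 0 members each time, from a lowest count of 0 to a highest of 0. The cause was not tested. Of 1598 values of named genes under alternatives, 18 turned sign and 10 newly passed the threshold. With hybridisation date as a block, ND-42 was 0.0375, Sdhaf3 0.0958 and ATPsynbetaL -0.24 at 2 h, Sdhaf3 -0.0181 and ATPsynB -0.0333 at 4 h, and UQCR-14L 0.0816 at 6 h and 0.0013 for the change from 2 to 6 h. In the same fit the sleeping slopes were 0.0441 for SdhB, 0.0246 for UQCR-6.4 and 0.00090 for COX7B. With the actin covariate those of UQCR-6.4 and COX7B were 0.0130 and 0.0011. Sdhaf3 at 2 h was 0.0536 without the early arrays; leaving out single arrays it ran from -0.539, without replicate 2 of the 2 h deprived group, to 0.0536, without its replicate 1. UQCR-14L at 6 h ran from -0.0806, without replicate 1 of the 6 h deprived group, to 0.0095, without its replicate 2. UQCR-Q for wake minus ZT10 ran from -0.250, without replicate 3 of the wake group, to 0.0379, without its replicate 1, the early array, and was 0.0379 with chip lot as a block. Hybridisation date as a block was not run for the active period, whose arrays carry no such dates. With 3 arrays a group, median standard errors of a matched difference were 0.14 over the subunits and 0.09 over the paralogs, so differences of their size could not be told from 0, and the dim paralogs lie where signals are compressed.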
